A study of Mus musculus with 7 samples.

Results

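Cytochrome P450 enzymes and the families that act beside them form the machinery by which cells oxidise, reduce, hydrolyse and conjugate small lipophilic molecules. The P450s (Cyp) and flavin monooxygenases (Fmo) insert oxygen, the alcohol, aldehyde and carbonyl enzymes (Adh, Aldh, Akr, Cbr) move compounds between alcohol, aldehyde and acid, epoxide hydrolases (Ephx) open epoxides, and UDP-glucuronosyltransferases (Ugt) and glutathione S-transferases (Gst) attach a sugar acid or glutathione so that the product can leave the cell. The same enzymes also make and destroy signals: alcohol and aldehyde dehydrogenases turn retinol into retinoic acid, Cyp26 enzymes break retinoic acid down, and other members act on sterols, steroids, fatty acids and folate. The members were every gene whose symbol placed it in one of these 9 families, without the sterol synthesis enzyme Cyp51, and 76 of the 12771 genes in the count table met that rule.

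RNA was counted in cancer-associated fibroblasts (CAFs) from mouse pancreatic tumors. KPC cells, a mouse pancreatic ductal adenocarcinoma line, carried a lentiviral short hairpin against Brca2 (KPC-shBrca2) or a non-targeting hairpin (KPC-shControl) and were injected into the pancreas of 8-week-old C57BL/6 J male mice, which were killed 2 to 3 weeks later. In both groups the host mouse, and so the CAF, carried no hairpin; the hairpin marked the cancer cells alone. Live cells that were CD45-, CD31-, EpCAM- and PDPN+ were sorted and sequenced from the 3′ end of their polyadenylated RNA, giving 3 KPC-shControl libraries (replicates 1, 2 and 4) and 4 KPC-shBrca2 libraries (replicates 1 to 4) with 1898679 to 5990579 counts each. The labels did not name the animals, but the study's legends count as many mice as there are libraries in each group.

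The sorted cells carried all 10 genes of a fibroblast list. Epcam, Ptprc and Cdh5 were not in the table, but other genes of the epithelial, immune and endothelial lists were. Pecam1, the gene of the sort marker CD31, was at 1.95 to 17.7 normalized counts in KPC-shControl and 0 to 1.72 in KPC-shBrca2. Its log2 fold change was -3.60 ± 1.22 (SE) (DESeq2 adjusted p = 0.0311). Its mean of 3.87 was too low for a call. Among the other endothelial genes present, Tek and Vwf had negative log2 fold changes (-1.55 and -1.11). Those of Kdr and Egfl7 were positive (0.51 and 0.77). Genes of other cell types also moved with the groups. The genes of an epithelial and cancer cell list summed to 466 to 1203 normalized counts in KPC-shControl and to 1612 to 2135 in KPC-shBrca2, with 5 of the 8 genes present called higher (Krt7, Krt8, Krt18, Krt19 and Sox9). Acinar genes summed to 83.7 to 220 normalized counts in KPC-shControl and to 13.8 to 60.0 in KPC-shBrca2, with 3 of 7 called lower. Of 8 hepatocyte genes 2 were in the table, summing to 249 to 312 and to 73.1 to 182 normalized counts with Ahsg called lower, and Alb was among the 6 absent. Ahsg made up most of that sum, with group means of 276 and 106 normalized counts. Apoa1, the other gene, had means of 10.2 and 7.68 and was not called. Fibroblast genes summed to 125620 to 144438 in KPC-shControl and to 100464 to 120032 in KPC-shBrca2 with 2 falls (Dcn and Lum), and immune genes to 315 to 339.5 and to 399 to 431 with 2 rises (Csf1r and C1qa) and 2 falls (Jchain and Mzb1) among 7 present. The 7 pericyte genes present had 2 rises (Notch3 and Des) and the 9 mesothelial genes 1 rise (Krt19), and none of the 2 adipocyte and 5 endothelial genes present was called. The part of these cells in the enzyme results was not tested, and in bulk RNA fewer cells of a type and less RNA per cell cannot be told apart. Brca2 itself was at 12.9 ± 4.2 (SD, n = 3) and 12.2 ± 2.6 (SD, n = 4) normalized counts in the CAFs, which says nothing of the knockdown in the cancer cells.

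The sequences below are those of the most strongly lowered member, of a lowered alcohol dehydrogenase, of a lowered glutathione S-transferase and of a raised retinoic acid hydroxylase. RefSeq promoter entries on GRCm38.p6, the assembly that mm10 names, were given for 60 of the 76 members. Each of the first 3 lines is the 250 bases before the annotated start, read 5′ to 3′ on the strand of the gene. Capitals mark a match to a searched motif, and the line with none in capitals held no match.

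Cyp4b1, chr4:115647722-115647971, minus strand: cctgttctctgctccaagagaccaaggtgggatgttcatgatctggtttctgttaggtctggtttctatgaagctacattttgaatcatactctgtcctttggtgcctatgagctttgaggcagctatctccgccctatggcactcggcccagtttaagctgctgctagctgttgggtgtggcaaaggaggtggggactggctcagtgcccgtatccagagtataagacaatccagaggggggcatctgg
Adh1, chr3:138277335-138277584, plus strand: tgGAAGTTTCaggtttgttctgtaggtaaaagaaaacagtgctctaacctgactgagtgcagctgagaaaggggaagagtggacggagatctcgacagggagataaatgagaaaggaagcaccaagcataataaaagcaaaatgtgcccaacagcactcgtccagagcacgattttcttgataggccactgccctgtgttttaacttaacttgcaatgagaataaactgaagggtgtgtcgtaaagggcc
Gstm1, chr3:108017974-108018223, minus strand: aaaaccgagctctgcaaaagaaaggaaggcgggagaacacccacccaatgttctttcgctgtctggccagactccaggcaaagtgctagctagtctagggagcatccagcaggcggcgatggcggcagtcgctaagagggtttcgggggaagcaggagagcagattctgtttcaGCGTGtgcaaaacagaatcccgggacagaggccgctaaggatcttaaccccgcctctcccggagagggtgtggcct
Cyp26a1, chr19:37697771-37697797, plus strand: aaagaTGAACTTTGGGTGAACTaattt

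The Adh1 capitals are the heat shock factor pattern GAANNTTC, and those of Gstm1 are GCGTG, the core bound by the aryl hydrocarbon receptor, 72 bases before the start. Cyp26a1 is shown only as the 27 bases around a direct repeat of the retinoic acid receptor motif with 5 bases between the repeats (DR5), read on the opposite strand, which ended 16 bases before the listed start and lay inside the gene's annotated span, since another start is placed upstream of it. Across 27025 promoters, one per gene, 0.0888% held a DR5 element on either strand, and among the members only Cyp26a1 did (1 of 60). GCGTG was in 18 of 60 members and 28.2% of all promoters, ACGTG (the hypoxia factor core) in 11 of 60 and 16.6%, TGACNNNGC (the antioxidant element) in 4 of 60 and 10.1%, and the heat shock patterns GAANNTTC and TTCNNGAA in 3 and 2 of 60 and in 6.78% and 7.1%. GCGTG and ACGTG share 4 letters and their matches can overlap, both strands were searched for each, and a match is a description of the letters in this window.

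More of these enzymes were lower than higher in CAFs from KPC-shBrca2 tumors, and the lowered ones included Cyp4b1, Adh1, Fmo1 and glutathione S-transferases of the mu and theta classes. A gene was called when the DESeq2 likelihood ratio test gave an adjusted p below 0.1, the absolute log2 fold change exceeded 0.5 and the mean normalized count exceeded 5, which are the study's thresholds. By that rule 15 of the 76 members (19.7%) were called, against 9.04% of the 12768 genes tested. Lower in KPC-shBrca2 were 12 members (15.8%, against 5.27% of all genes) and higher were 3 (3.95%, against 3.77%). The median log2 fold change was -0.18 over the 76 members and 0.0079 over all genes tested. For 20 members no library of one group lay inside the range of the other (26.3%), against 17.1% of all genes. Of the 76 members 14 were apart and lower in KPC-shBrca2 and 6 apart and higher. Among the 12768 genes tested these numbers were 1187 and 994. Of the 76, 10 had a mean of 5 or lower and could not be called, and none was dropped from the counts above.

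**Figure D1:**
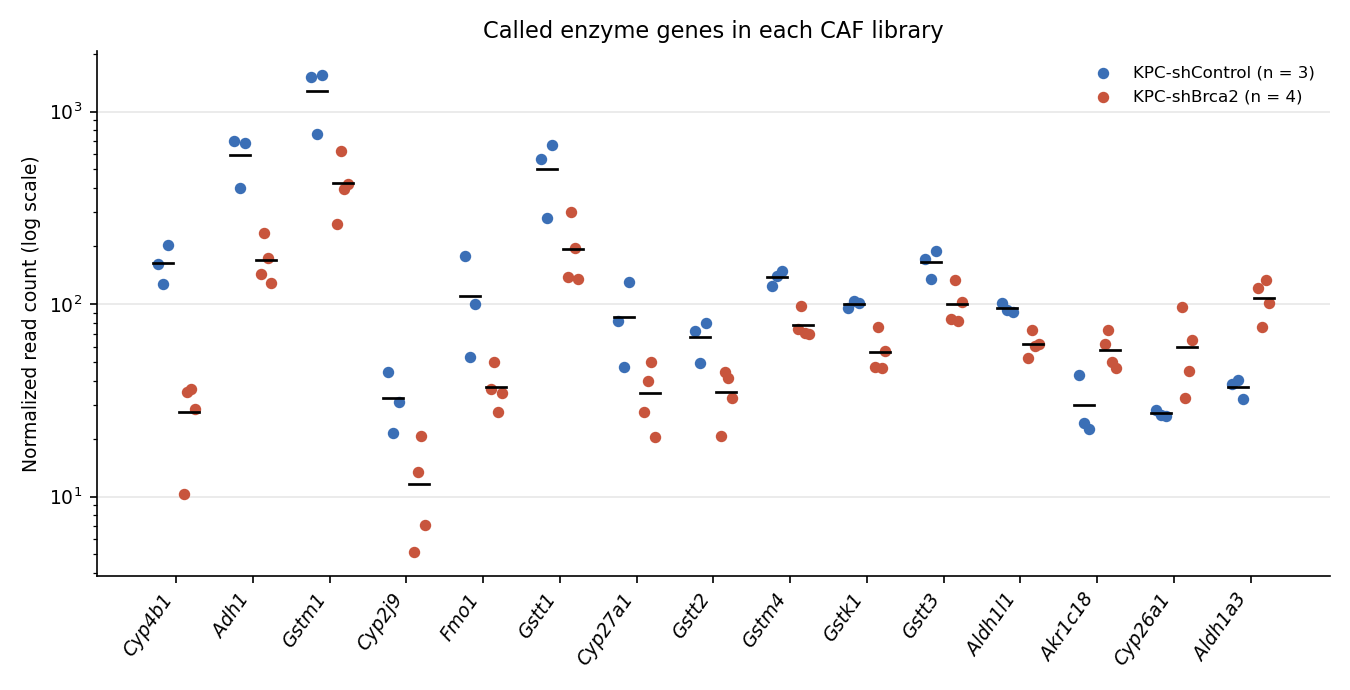
Normalized read count (log axis) of the 15 called enzyme genes in each CAF library, ordered by fold change from the most lowered to the most raised; points are libraries (3 KPC-shControl, 4 KPC-shBrca2) and black lines are group means. All 4 KPC-shBrca2 libraries of Cyp4b1 lay between 10.3 and 36.3, below the 3 KPC-shControl libraries at 127 to 202, whereas the groups of Gstt1 and Cyp27a1 overlapped.

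Cyp4b1, on chromosome 4 at 115624698 to 115647721, encodes a P450 that hydroxylates fatty acids at their end and activates some furan toxins. In KPC-shControl replicates 1, 2 and 4 Cyp4b1 stood at 161, 127 and 202 normalized counts, and in KPC-shBrca2 replicates 1 to 4 at 10.3, 35.0, 36.3 and 28.5. All 4 KPC-shBrca2 libraries lay below all 3 KPC-shControl libraries, and replicate 1 was the lowest. Cyp4b1 fell by 6.02 fold, the largest fall among the members with a mean above 5 (log2 fold change -2.59 ± 0.35 (SE), DESeq2 adjusted p = 1.24e-10). It was called in each of the 13 other fits, with log2 fold changes of -2.82 to -2.30. Of the 50-base words in the last 500 bases of its transcripts, 7.3% also occurred in a pseudogene or an unnamed gene model, so a small share of its reads could belong elsewhere. The Cyp4b1 exons held 7553 bases, of which 657 lay over an exon of Cyp4a32 on the opposite strand.

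The other P450s divided between lowered genes, a raised gene and many that were not called. Of 24 P450 members 3 fell (12.5%, against 5.27% of all genes) and 1 rose (4.17%, against 3.77%). The median log2 fold change of the family was 0.21. Cyp27a1 (chromosome 1, 74713148 to 74737897) is the mitochondrial enzyme that hydroxylates cholesterol at its side chain. Normalized counts of Cyp27a1 were 81.1, 46.8 and 130.4 in KPC-shControl replicates 1, 2 and 4 and 27.5, 39.6, 50.1 and 20.3 in KPC-shBrca2 replicates 1 to 4. The groups overlapped, because KPC-shBrca2 replicate 3 lay above KPC-shControl replicate 2. Even so Cyp27a1 fell (log2 fold change -1.35 ± 0.39 (SE), DESeq2 adjusted p = 0.0112). Of its 3321 exon bases 1088 lay over an exon of Prkag3 on the opposite strand, and the sources used here did not say whether counting used the strand.

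Cyp2j9 (chromosome 4, 96568424 to 96592523) and its neighbour Cyp2j6 (96516138 to 96564305) belong to a subfamily that oxidises arachidonic acid. The KPC-shControl replicates 1, 2 and 4 gave Cyp2j9 44.4, 21.5 and 31.1 normalized counts, and KPC-shBrca2 replicates 1 to 4 gave it 5.16, 13.4, 20.7 and 7.11. Cyp2j9 fell, with no overlap of groups (log2 fold change -1.56 ± 0.48 (SE), DESeq2 adjusted p = 0.0217), on raw counts of 6 to 52 per library. Cyp2j6 reached 23.9, 11.4 and 19.5 normalized counts in KPC-shControl replicates 1, 2 and 4, against 5.16, 11.7, 3.45 and 9.15 in KPC-shBrca2 replicates 1 to 4. Cyp2j6 was not called: the groups met at replicate 2, which stood at 11.4 in KPC-shControl and 11.7 in KPC-shBrca2 (log2 fold change -1.24 ± 0.53 (SE), DESeq2 adjusted p = 0.149).

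Cyp1b1, which oxidises estradiol and polycyclic aromatic compounds and is a classical target of the aryl hydrocarbon receptor, had the highest mean count of the P450s and was not called. For Cyp1b1, KPC-shControl replicates 1, 2 and 4 held 1413, 825 and 1399 normalized counts and KPC-shBrca2 replicates 1 to 4 held 1049, 1541, 1016 and 1094. The ranges of the groups overlapped (log2 fold change -0.045 ± 0.24 (SE), DESeq2 adjusted p = 0.953). Among P450s that act on sterols and oxysterols, Cyp7b1 and Cyp39a1 were above every KPC-shControl library in all 4 KPC-shBrca2 libraries but were not called (log2 fold changes 0.33 ± 0.17 (SE) and 0.71 ± 0.36 (SE), DESeq2 adjusted p = 0.293 and 0.267), and Cyp46a1 was at 0.23 ± 0.31 (SE). These 3 genes were chosen after their values were seen. Cyp2d34 had 6 counts in KPC-shBrca2 replicate 1 and none in the other 6 libraries.

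Adh1, which was lowered, and Aldh1a3 and Cyp26a1, which were raised, act on retinoids. Aldh1a1, Aldh1a2 and Cyp26b1, which also do, were not called. The raised members as a whole were 3 of the 76 (3.95%), against 3.77% of all genes. Whether retinoid genes differed from the rest was not tested. Adh1 (chromosome 3, 138277585 to 138290698) encodes the class I alcohol dehydrogenase, which oxidises ethanol and retinol. Adh1 had 705, 399.8 and 688 normalized counts in KPC-shControl replicates 1, 2 and 4 and 143, 234, 174 and 128 in KPC-shBrca2 replicates 1 to 4. Every KPC-shBrca2 library was below every KPC-shControl library, and the KPC-shControl library closest to them was replicate 2. Adh1 fell by 3.51 fold (log2 fold change -1.81 ± 0.27 (SE), DESeq2 adjusted p = 8.98e-09). Adh5, which uses glutathione-bound formaldehyde, was not called (0.24 ± 0.17 (SE), DESeq2 adjusted p = 0.527).

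Of the 3 retinaldehyde dehydrogenases, which make retinoic acid, 1 was called. Aldh1a3 (chromosome 7, 66390892 to 66427477) rose. In KPC-shControl replicates 1, 2 and 4 Aldh1a3 stood at 38.4, 40.5 and 32.1 normalized counts, and in KPC-shBrca2 replicates 1 to 4 at 120.5, 76.4, 133 and 102. The lowest KPC-shBrca2 library, replicate 2, was well above the highest KPC-shControl library, and the log2 fold change was 1.53 ± 0.28 (SE) (DESeq2 adjusted p = 8.27e-06). Normalized counts of Aldh1a2 were 3553, 4399.9 and 3517 in KPC-shControl replicates 1, 2 and 4 and 2974, 3616, 1910.2 and 3191 in KPC-shBrca2 replicates 1 to 4. Aldh1a2 had the highest mean count of all 76 members, its groups overlapped, and it was not called (log2 fold change -0.39 ± 0.22 (SE), DESeq2 adjusted p = 0.362). Aldh1a1 had a log2 fold change of 0.19 ± 0.23 (SE) (DESeq2 adjusted p = 0.757). The differences among the 3 were not tested.

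Cyp26a1 (chromosome 19, 37697738 to 37701536), which hydroxylates retinoic acid and is itself a known target of the retinoic acid receptors, is the member whose DR5 match is printed above, and it rose. The KPC-shControl replicates 1, 2 and 4 gave Cyp26a1 28.2, 26.6 and 26.3 normalized counts, and KPC-shBrca2 replicates 1 to 4 gave it 96.4, 32.6, 44.9 and 65.0. The 3 KPC-shControl libraries lay within 1.92 normalized counts of each other, while the KPC-shBrca2 libraries spread from close to them (replicate 2) to 3.57 times their mean (replicate 1). The log2 fold change was 1.15 ± 0.39 (SE) (DESeq2 adjusted p = 0.0498), and without KPC-shBrca2 replicate 1 it was 0.80 (DESeq2 adjusted p = 0.368). Cyp26b1 reached 17.9, 89.8 and 81.7 normalized counts in KPC-shControl replicates 1, 2 and 4, against 39.6, 46.6, 29.4 and 44.7 in KPC-shBrca2 replicates 1 to 4. Its paralog Cyp26b1 was not called (log2 fold change -0.63 ± 0.45 (SE), DESeq2 adjusted p = 0.508). KPC-shControl replicate 1 was the lowest of all 7 libraries and the other KPC-shControl libraries were the highest. Cyp26b1 was called when KPC-shControl replicate 1 was left out.

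Of 17 further genes of retinoid uptake, binding, reduction and reception, 16 were in the table, 1 rose and 1 fell, and their median log2 fold change was -0.04. For Stra6, KPC-shControl replicates 1, 2 and 4 held 35.9, 94.9 and 37.0 normalized counts and KPC-shBrca2 replicates 1 to 4 held 158, 110.2, 91.5 and 207. Stra6, the membrane receptor that takes up retinol, rose (log2 fold change 1.36 ± 0.38 (SE), DESeq2 adjusted p = 0.0119), although KPC-shControl replicate 2 lay within the KPC-shBrca2 range. Rxra had 241, 277 and 291 normalized counts in KPC-shControl replicates 1, 2 and 4 and 168, 162, 164 and 129 in KPC-shBrca2 replicates 1 to 4. Rxra, a nuclear receptor that pairs with the retinoic acid receptors, fell in groups that did not overlap (log2 fold change -0.79 ± 0.18 (SE), DESeq2 adjusted p = 6.24e-04). Rdh10, which oxidises retinol, and Dhrs3, which reduces retinaldehyde, were not called, at log2 fold changes of -0.32 ± 0.26 (SE) and -0.24 ± 0.19 (SE). The groups did not overlap in the epithelial, acinar, hepatocyte, fibroblast and immune sums given above. The part of those cells in the calls of Adh1, Aldh1a3, Cyp26a1, Stra6 and Rxra was not tested.

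**Figure D2:**
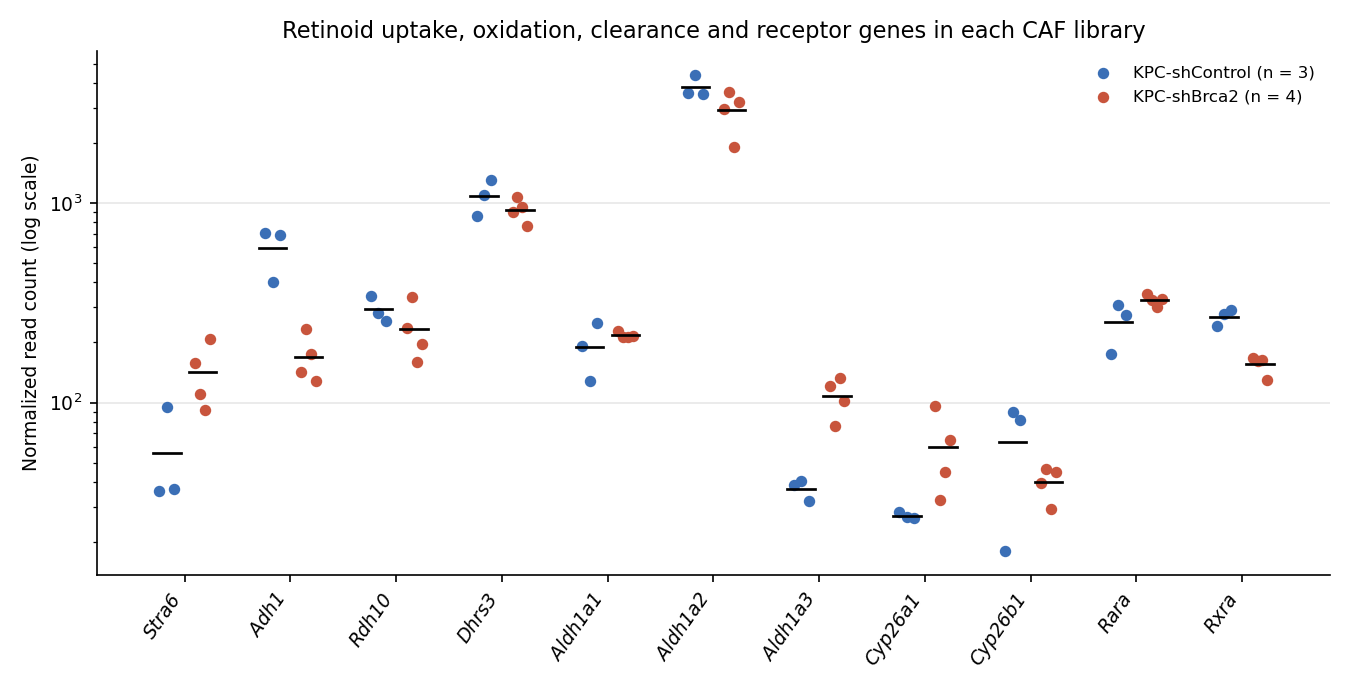
Normalized read count (log axis) of 11 genes of retinoid uptake, oxidation, clearance and reception in each CAF library; points are libraries and black lines are group means. Adh1 and Rxra lay lower and Aldh1a3 and Cyp26a1 higher in all 4 KPC-shBrca2 libraries than in all 3 KPC-shControl libraries, and Stra6 was called higher with overlapping groups.

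Glutathione S-transferases were the family with most calls, and all 6 were falls. Of 16 members 6 fell (37.5%, against 5.27% of all genes) and none rose, and the median log2 fold change was -0.75. Negative log2 fold changes were found in 12 of the 16, against 6276 of the 12768 genes tested. The falls were in the mu class (2 of 6), the theta class (3 of 3) and the kappa enzyme Gstk1. The 6 alpha, omega, pi and zeta members had no call and a median of 0.18, with 4 positive and 2 negative log2 fold changes. Summed over the family, the normalized counts were 4882, 3530 and 5082 in KPC-shControl replicates 1, 2 and 4 and 2377, 3515, 2313 and 2850 in KPC-shBrca2 replicates 1 to 4. Replicate 2 of both groups was thus close to equal in that sum.

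The mu class genes lie together on chromosome 3 from 107895854 to 108045179, in the order Gstm5, Gstm7, Gstm6, Gstm2, Gstm1 and Gstm4. Mu class enzymes conjugate epoxides and other electrophiles with glutathione in the cytosol. In KPC-shControl replicates 1, 2 and 4 Gstm1 stood at 1504, 763 and 1555 normalized counts, and in KPC-shBrca2 replicates 1 to 4 at 259.9, 621, 396 and 419. Gstm1 fell by 3.00 fold (log2 fold change -1.59 ± 0.31 (SE), DESeq2 adjusted p = 2.75e-05), with the groups apart but KPC-shControl replicate 2 and KPC-shBrca2 replicate 2 closest. Normalized counts of Gstm4 were 124, 140.4 and 148 in KPC-shControl replicates 1, 2 and 4 and 74.0, 97.9, 70.8 and 70.1 in KPC-shBrca2 replicates 1 to 4. Gstm4 also fell (log2 fold change -0.79 ± 0.22 (SE), DESeq2 adjusted p = 0.00764). The KPC-shControl replicates 1, 2 and 4 gave Gstm2 1421, 1308 and 1311 normalized counts, and KPC-shBrca2 replicates 1 to 4 gave it 925, 1289.9, 622 and 892. Gstm2, the mu class gene with the highest mean count, was lower in every KPC-shBrca2 library than in any KPC-shControl library but by 18.2 normalized counts at the nearest pair, and it was not called (log2 fold change -0.53 ± 0.23 (SE), DESeq2 adjusted p = 0.16). Gstm5, Gstm6 and Gstm7 had negative log2 fold changes of -0.42 ± 0.22 (SE), -1.70 ± 1.005 (SE) and -0.72 ± 0.52 (SE) and were not called. Of the 50-base words at the 3′ end of Gstm1, 21.5% also occurred in Gstm3, a pseudogene or an unnamed gene model, and 15.6% of those of Gstm2 occurred in unnamed gene models, so some of their counts could belong there, whereas Gstm4, Gstm5 and Gstm7 shared no such word with another gene.

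Gstt3, Gstt1 and Gstt2 lie in that order on chromosome 10 from 75774117 to 75837419 and encode theta class enzymes, which act on small halogenated compounds and organic hydroperoxides. Gstt1 reached 565, 281 and 667 normalized counts in KPC-shControl replicates 1, 2 and 4, against 139, 302, 195 and 135 in KPC-shBrca2 replicates 1 to 4. Gstt1 fell (log2 fold change -1.39 ± 0.34 (SE), DESeq2 adjusted p = 0.00157), although KPC-shBrca2 replicate 2 lay above KPC-shControl replicate 2. For Gstt2, KPC-shControl replicates 1, 2 and 4 held 72.6, 49.3 and 79.8 normalized counts and KPC-shBrca2 replicates 1 to 4 held 20.7, 44.3, 41.5 and 32.5. Gstt2 fell with the groups apart (log2 fold change -0.97 ± 0.32 (SE), DESeq2 adjusted p = 0.0424). Gstt3 had 171, 135 and 189.7 normalized counts in KPC-shControl replicates 1, 2 and 4 and 83.5, 133, 81.2 and 103 in KPC-shBrca2 replicates 1 to 4. For Gstt3, which also fell (log2 fold change -0.71 ± 0.24 (SE), DESeq2 adjusted p = 0.0468), the nearest libraries were again replicate 2 of each group. A gene model that runs on from Gstt3 on the same strand shared 9.92% of its 3′ words.

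In KPC-shControl replicates 1, 2 and 4 Gstk1 stood at 94.8, 104 and 101 normalized counts, and in KPC-shBrca2 replicates 1 to 4 at 47.3, 75.8, 46.6 and 56.9. Gstk1 (chromosome 6, 42245935 to 42250441), the transferase of mitochondria and peroxisomes, fell as well (log2 fold change -0.79 ± 0.25 (SE), DESeq2 adjusted p = 0.027). The alpha member Gsta4, which conjugates the lipid aldehyde 4-hydroxynonenal, and the pi member Gstp1, which shared 35.4% of its 3′ words with Gstp2 or a pseudogene, were not called, at log2 fold changes of 0.50 ± 0.43 (SE) and 0.35 ± 0.28 (SE). The alpha member Gsta3 and the omega member Gsto2 were negative, at -1.08 ± 0.57 (SE) and -0.85 ± 0.58 (SE). Neither was called (DESeq2 adjusted p = 0.303 and 0.491).

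**Figure D3:**
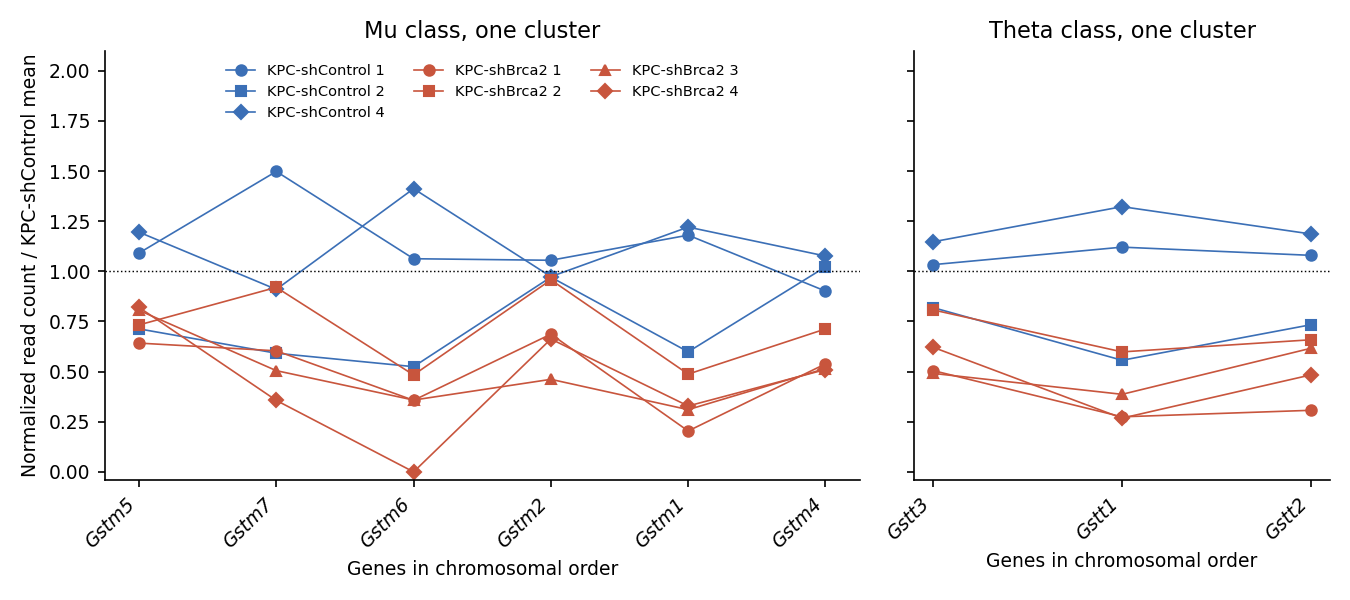
Normalized read count of each mu class (left) and theta class (right) gene in each library, divided by the gene's KPC-shControl mean, with genes in chromosomal order; lines join the values of one library and the dotted line marks 1. For Gstm1 and Gstt1 the KPC-shBrca2 libraries ran from 0.20 to 0.49 and from 0.27 to 0.60 of the KPC-shControl mean, and KPC-shControl replicate 2 (blue squares) ran below 1 for all genes but Gstm4.

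Fmo1 (chromosome 1, 162829561 to 162866610), a flavin monooxygenase that oxygenates nitrogen and sulfur compounds, fell. Normalized counts of Fmo1 were 177, 53.1 and 100.2 in KPC-shControl replicates 1, 2 and 4 and 36.1, 50.1, 27.6 and 34.6 in KPC-shBrca2 replicates 1 to 4. The KPC-shControl libraries spread 3.33-fold, and the lowest of them, replicate 2, was 3.01 normalized counts above the highest KPC-shBrca2 library, also replicate 2 (log2 fold change -1.55 ± 0.38 (SE), DESeq2 adjusted p = 0.00167). Its neighbour Fmo2 had a log2 fold change of -0.69 ± 0.45 (SE) and was not called, and Fmo5 had a mean of 2.67.

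The 16 aldehyde dehydrogenases had 2 calls (12.5%, against 9.04% of all genes), and 1 of these was outside the retinoid enzymes. Aldh1l1 (chromosome 6, 90550768 to 90599171) and Aldh1l2 oxidise 10-formyltetrahydrofolate, the former in the cytosol and the latter in mitochondria. The KPC-shControl replicates 1, 2 and 4 gave Aldh1l1 101, 93.6 and 90.5 normalized counts, and KPC-shBrca2 replicates 1 to 4 gave it 52.5, 72.9, 60.4 and 62.0. Aldh1l1 fell (log2 fold change -0.61 ± 0.23 (SE), DESeq2 adjusted p = 0.0809). Aldh1l2 reached 30.8, 45.5 and 13.6 normalized counts in KPC-shControl replicates 1, 2 and 4, against 69.7, 58.9, 34.5 and 54.9 in KPC-shBrca2 replicates 1 to 4. Aldh1l2 went the other way without being called, with KPC-shControl replicate 2 inside the KPC-shBrca2 range (log2 fold change 0.90 ± 0.39 (SE), DESeq2 adjusted p = 0.167). For Aldh3a2, KPC-shControl replicates 1, 2 and 4 held 219.5, 199.9 and 216 normalized counts and KPC-shBrca2 replicates 1 to 4 held 146, 169, 166 and 128. Aldh3a2, the fatty aldehyde dehydrogenase, passed the adjusted p and not the fold threshold (log2 fold change -0.48 ± 0.18 (SE), DESeq2 adjusted p = 0.0878), and was just outside the rule as Aldh1l1 was just inside it. Aldh3a1, at 1 to 9 raw counts per library, was higher in all 4 KPC-shBrca2 libraries but lay below the mean threshold (mean 4.35, log2 fold change 1.93 ± 0.90 (SE), DESeq2 adjusted p = 0.193).

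Of 8 aldo-keto reductases only Akr1c18 was called (12.5%, against 9.04% of all genes). Akr1c18 (chromosome 13, 4132615 to 4150646) encodes the 20-alpha-hydroxysteroid dehydrogenase that inactivates progesterone. Akr1c18 had 42.7, 24.0 and 22.4 normalized counts in KPC-shControl replicates 1, 2 and 4 and 62.0, 72.9, 50.1 and 46.8 in KPC-shBrca2 replicates 1 to 4. It rose with the groups 4.05 normalized counts apart at their nearest libraries (log2 fold change 0.96 ± 0.33 (SE), DESeq2 adjusted p = 0.0498). Akr1a1, the aldehyde reductase with the highest mean count of the family, was not called, and its 7 libraries lay between 1994 and 2562 (log2 fold change 0.10 ± 0.14 (SE), DESeq2 adjusted p = 0.804).

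The epoxide hydrolases, carbonyl reductases and the glucuronosyltransferase had no called member. All 3 epoxide hydrolases were negative, at -0.20 ± 0.26 (SE) for the microsomal Ephx1, -0.84 ± 0.38 (SE) for the soluble Ephx2, which hydrolyses fatty acid epoxides, and -1.002 ± 0.68 (SE) for Ephx4 on the log2 scale, with DESeq2 adjusted p = 0.783, 0.196 and 0.466. The carbonyl reductases Cbr1 and Cbr3 had log2 fold changes of -0.25 ± 0.17 (SE) and -0.50 ± 0.23 (SE) (DESeq2 adjusted p = 0.484 and 0.214). In KPC-shControl replicates 1, 2 and 4 Ugt1a6b stood at 1687, 1261 and 2394 normalized counts, and in KPC-shBrca2 replicates 1 to 4 at 1244, 1757, 1335 and 1324. Ugt1a6b had overlapping groups (log2 fold change -0.33 ± 0.23 (SE), DESeq2 adjusted p = 0.504), and all 50-base words of its 3′ end were shared with other Ugt1a genes, which end in the same exons, so its counts cannot be assigned to one of them.

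**Figure D4:**
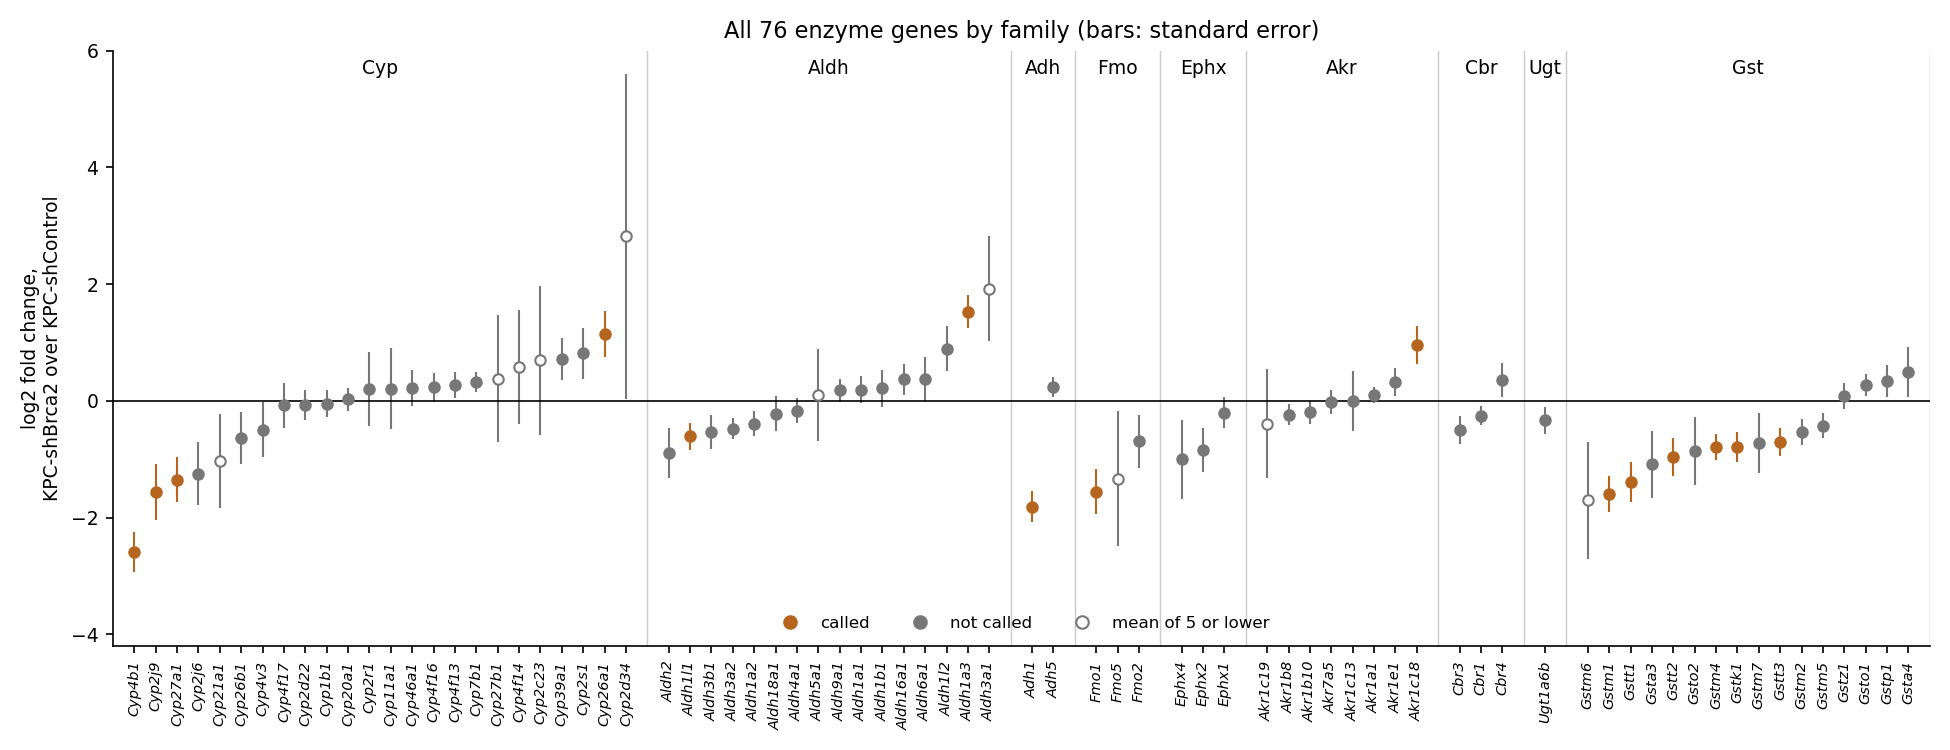
Log2 fold change (KPC-shBrca2 over KPC-shControl) of all 76 enzyme genes, grouped by family and ordered within each; bars are standard errors, filled brown points are called, filled grey points are not, and open points have a mean of 5 or lower. The mu, theta and kappa glutathione S-transferases lay below 0, as did Gsta3 and Gsto2. Cyp4b1 had the lowest value of the genes with a mean above 5, at -2.59.

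The genes that regulate these enzymes or pass them electrons showed 1 call among 14 present of 17 listed, and a median log2 fold change of -0.06. Normalized counts of Cyb5a were 1004, 540.2 and 859 in KPC-shControl replicates 1, 2 and 4 and 346, 643, 482 and 399 in KPC-shBrca2 replicates 1 to 4. Cyb5a, cytochrome b5, which passes electrons to P450s, fell (log2 fold change -0.78 ± 0.27 (SE), DESeq2 adjusted p = 0.0471), with KPC-shControl replicate 2 inside the KPC-shBrca2 range. Por, the reductase on which microsomal P450s depend, the aryl hydrocarbon receptor Ahr, and Nfe2l2, the factor behind the antioxidant response, were not called, at log2 fold changes of -0.075 ± 0.19 (SE), 0.25 ± 0.27 (SE) and -0.036 ± 0.20 (SE). Nr1i2 and Nr1i3, the xenobiotic receptors of liver, were not in the table.

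Among 27 of 28 listed genes of other conjugation, hydrolysis and export, 2 rose and 2 fell, with a median of -0.13. Over the retinoid, regulator and conjugation lists together, 3 of 57 genes present rose and 4 fell, against 3.77% and 5.27% of all genes. The KPC-shControl replicates 1, 2 and 4 gave Abcb1b 42.7, 81.0 and 125 normalized counts, and KPC-shBrca2 replicates 1 to 4 gave it 278, 205, 328 and 291. Abcb1b rose without overlap of the groups (log2 fold change 1.73 ± 0.31 (SE), DESeq2 adjusted p = 1.72e-05). Abcb1a reached 29.0, 46.8 and 54.5 normalized counts in KPC-shControl replicates 1, 2 and 4, against 72.3, 66.4, 109 and 72.2 in KPC-shBrca2 replicates 1 to 4. Abcb1a also rose (log2 fold change 0.87 ± 0.30 (SE), DESeq2 adjusted p = 0.0553), and the 2 genes encode the mouse P-glycoproteins that pump drugs out of cells. For Mgst3, KPC-shControl replicates 1, 2 and 4 held 226, 94.9 and 85.6 normalized counts and KPC-shBrca2 replicates 1 to 4 held 51.6, 64.7, 67.4 and 57.9. Mgst3, a microsomal glutathione transferase, fell (log2 fold change -1.17 ± 0.34 (SE), DESeq2 adjusted p = 0.0121), with KPC-shControl replicate 1 far above the rest. Ces1d had 23.9, 12.7 and 25.3 normalized counts in KPC-shControl replicates 1, 2 and 4 and 6.02, 3.50, 8.64 and 5.08 in KPC-shBrca2 replicates 1 to 4. Ces1d, a carboxylesterase, fell at low counts (log2 fold change -1.94 ± 0.53 (SE), DESeq2 adjusted p = 0.00659). The glutathione synthesis genes Gclc and Gclm were not called, at -0.13 ± 0.25 (SE) and -0.081 ± 0.23 (SE) on the log2 scale.

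For the lowered members, replicate 2 was often the library of each group nearest to the other group. KPC-shControl replicate 2 was the lowest KPC-shControl library for 9 of the 12 lowered members and for 64.5% of the 76, against 37.6% of all genes tested. KPC-shBrca2 replicate 2 was the highest KPC-shBrca2 library for 9 of the 12 lowered members and for 46.1% of the 76, against 26.7% of all genes. In the acinar sum, KPC-shBrca2 replicate 2 was also the highest of its group at 60.0, while KPC-shControl replicate 2 was the middle library at 145. In the epithelial sum KPC-shBrca2 replicate 2 was the lowest of its group at 1612. The hepatocyte sum had KPC-shControl replicate 2 as the lowest of its group at 249 and KPC-shBrca2 replicate 2 as the highest at 182. The adipocyte (149 and 316.5) and immune (315 and 431) sums had the same order. The hepatocyte sum was mostly Ahsg, and the adipocyte sum held only Fabp4 and Pnpla2. In the fibroblast, mesothelial, endothelial and pericyte sums KPC-shControl replicate 2 was not the lowest of its group. The part of these cells in the replicate 2 pattern was not tested.

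Adh1, Aldh1a3, Cyp4b1, Fmo1, Gstm1, Gstm4 and Gstt1 stayed called when any 1 library was left out, and the other 8 called members did not. Leaving out 1 library gave 10 called members without KPC-shControl replicate 1, 18 without replicate 2 and 10 without replicate 4, and 8, 14, 14 and 9 without KPC-shBrca2 replicates 1 to 4. These counts include members not called with all 7 libraries. Without KPC-shControl replicate 1 this was Cyp26b1, and without replicate 2 Aldh1l2, Aldh3b1, Cbr3, Ephx2, Gsta3 and Gstm5. Without KPC-shControl replicate 4 they were Cyp2s1 and Gsta4. Without KPC-shBrca2 replicate 2 it was Gstm2, and without replicate 3 Aldh1l2. Cyp27a1 lost its call when KPC-shControl replicate 4 was left out (DESeq2 adjusted p = 0.204). Cyp2j9 lost its call when KPC-shControl replicate 1 or KPC-shBrca2 replicate 1 or 4 was left out (DESeq2 adjusted p = 0.274, 0.15 and 0.122). Gstt2 lost its call when KPC-shControl replicate 1 or 4 or KPC-shBrca2 replicate 1 or 4 was left out (DESeq2 adjusted p = 0.212, 0.268, 0.257 and 0.16). Gstk1 lost its call when KPC-shControl replicate 1 or 4 or KPC-shBrca2 replicate 1 or 4 was left out (DESeq2 adjusted p = 0.112, 0.139, 0.208 and 0.127). Akr1c18 lost its call when KPC-shControl replicate 2 or 4 or KPC-shBrca2 replicate 1 or 2 was left out (DESeq2 adjusted p = 0.176, 0.31, 0.208 and 0.233). Gstt3 lost its call when KPC-shControl replicate 1 or 4 or KPC-shBrca2 replicate 1, 3 or 4 was left out (DESeq2 adjusted p = 0.197, 0.286, 0.258, 0.127 and 0.154). Cyp26a1 lost its call when KPC-shControl replicate 1, 2 or 4 or KPC-shBrca2 replicate 1 or 4 was left out (DESeq2 adjusted p = 0.15, 0.105, 0.163, 0.368 and 0.149). Aldh1l1 lost its call whichever 1 of the 7 libraries was left out (DESeq2 adjusted p = 0.112 to 0.432). The sign of the fold change of all 15 stayed the same in all 13 other fits. For the further genes, Abcb1a lost its call when KPC-shControl replicate 1 or KPC-shBrca2 replicate 1, 3 or 4 was left out (DESeq2 adjusted p = 0.404, 0.145, 0.18 and 0.127). Cyb5a lost its call when KPC-shControl replicate 1 or 4 or KPC-shBrca2 replicate 1 or 4 was left out (DESeq2 adjusted p = 0.3, 0.15, 0.207 and 0.171). Ces1d lost its call when KPC-shControl replicate 1 or 4 was left out (DESeq2 adjusted p = 0.109 and 0.106). Mgst3 lost its call when KPC-shControl replicate 1 was left out (DESeq2 adjusted p = 0.356).

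**Figure D5:**
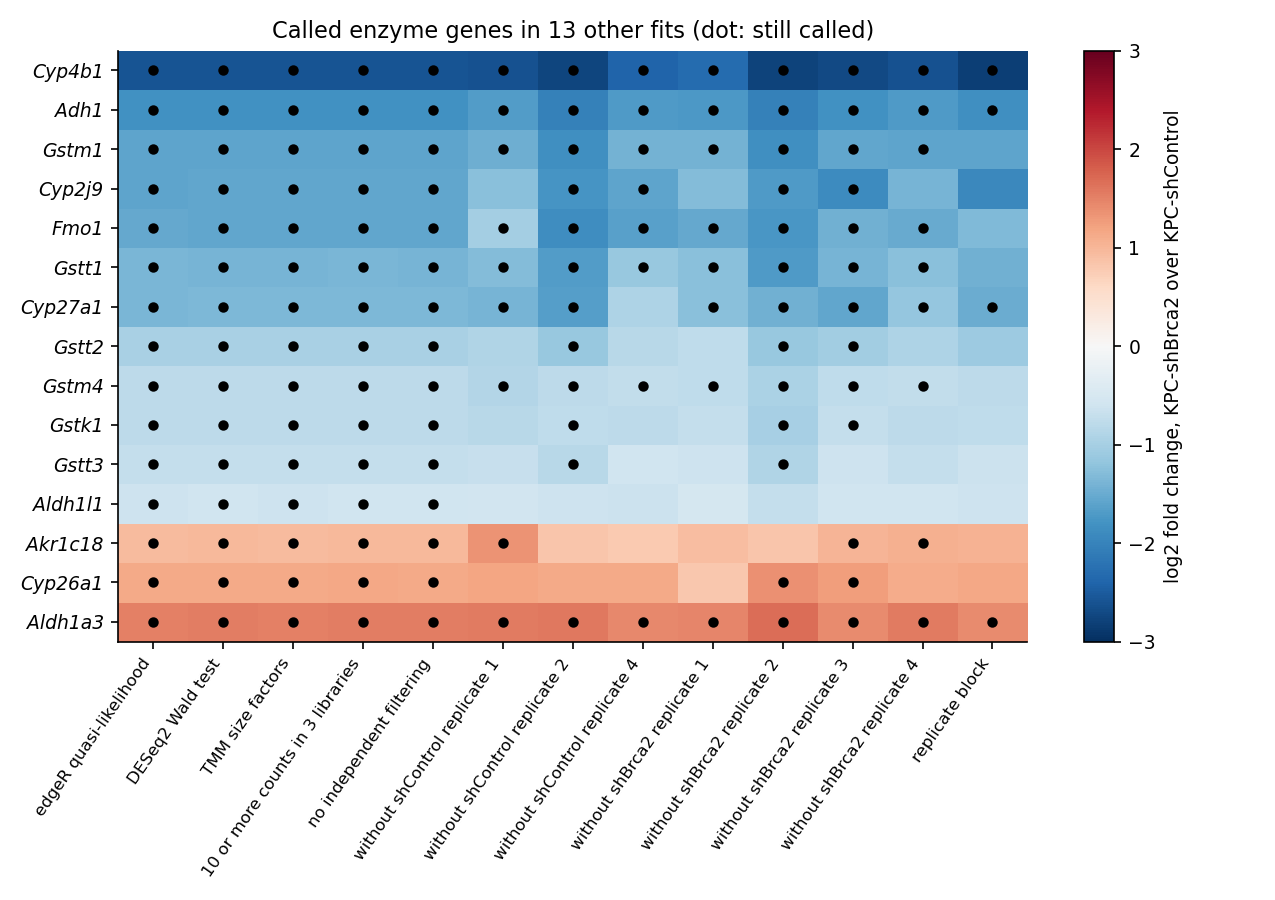
Log2 fold change (KPC-shBrca2 over KPC-shControl, color) of the 15 called enzyme genes in 13 other fits; a black dot marks a fit in which the gene was still called. The 7 genes with a dot in all 7 columns that leave out 1 library are Cyp4b1, Adh1, Gstm1, Fmo1, Gstt1, Gstm4 and Aldh1a3.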

How the data were processed

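Raw read counts per gene, as deposited by the authors, were used for all 7 CAF libraries; the table held genes by symbol, and its lowest maximum count over libraries was 6. Per the submitters' processing notes the authors used bcl2fastq, cutadapt, STAR 2.4.2a, HTSeq and mm10; whether counts were collapsed by molecular identifier or strand, and which annotation was used, is not given in the sources used here. If strand was not used, genes overlapping on opposite strands share counts. Exon bases were shared with another gene in 6 called members (Adh1, Aldh1l1, Cyp27a1, Cyp4b1, Gstm1 and Gstt3). Normalized counts are raw counts divided by DESeq2 size factors. The test was the DESeq2 1.42.0 likelihood ratio test of group over all libraries (R 4.3.3), with Benjamini-Hochberg adjustment over all genes and the study's thresholds, and log2 fold changes are unshrunken with standard errors; 3 genes had no p-value. Alternatives were edgeR 4.0.16 quasi-likelihood, the DESeq2 Wald test, TMM size factors, a filter of 10 counts in 3 libraries, no independent filtering, each library left out, and the replicate number as a block. The test was checked on simulated counts.

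Members and lists were chosen with earlier results of these data known. Named were Cyp4b1, each called member, each family's member of highest mean count and of largest absolute log2 fold change among means over 5, each member with an adjusted p of 0.1 to 0.2 and each called further gene; other genes named as examples were chosen after their values were seen. Positions and sequences are RefSeq's on GRCm38.p6, and all 76 symbols matched. Shared exon bases and 3′ words came from GENCODE vM39 transcripts. The values of 1 listed gene are not reported here.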

Additional observations from a re-analysis of the deposited data

Results flagged for a closer look

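A pair of genes had 1 KPC-shBrca2 library far from the other 3, by Dixon's gap test at the 95% level. Of 28 named members tested, 2 met it, and chance alone flags about 1 in 20. Cyp1b1 stood at 1541 normalized counts in KPC-shBrca2 replicate 2, with a gap of 0.851 of the group's range, against 1016 to 1094 in the other KPC-shBrca2 libraries. Gstm4 stood at 97.9 normalized counts in the same library, with a gap of 0.861 of the range, against 70.1 to 74.0 in the others, and remained below every KPC-shControl library.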

How the results depend on the processing

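The edgeR quasi-likelihood test, the DESeq2 Wald test, TMM size factors, the filter on low counts and no independent filtering each gave 15 called members, 12 lower and 3 higher. Leaving out 1 library at a time gave 8 to 18 called members, 7 to 16 lower and 1 to 4 higher, with 615 to 1305 of all genes and 4 to 10 of the further genes called against 1154 and 7. The counts of members include some not called with all 7 libraries. With the replicate number as a block, the replicate block fit called 4 members (Adh1, Aldh1a3, Cyp27a1 and Cyp4b1), 3 lower and 1 higher, 3 further genes and 491 genes in all. KPC-shBrca2 replicate 3 has no KPC-shControl library of its number, so it adds nothing to the group difference in that fit. The block also uses up part of the replication. Their part in the smaller number of calls was not tested. The labels give both groups numbers but do not say what a number shares, and over 9062 genes the deviations of same-numbered libraries correlated at -0.091, -0.13 and -0.14 for numbers 1, 2 and 4, so the numbers were not taken to pair the libraries. Between differently numbered libraries of the groups the correlations ran from -0.15 to 0.26, and their source was not tested. The 15 called members kept their sign throughout, and 44 of their 195 fold changes across alternatives lost the call. Fold changes near 0 changed sign for Cyp1b1 (0.077 and 0.069 without KPC-shControl replicates 1 and 4, 0.0078 and 0.018 without KPC-shBrca2 replicates 1 and 3, 0.032 with the replicate block, and -0.26 to 0.077 over the fits without 1 library) and for Ephx1 (0.10 without KPC-shControl replicate 4, and -0.46 to 0.10 over the fits without 1 library), and neither gene was called in any fit. The cause of these changes was not tested. The 10 members with a mean of 5 or lower were not callable at this depth under the mean threshold.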
